A study of Mus musculus with 2 samples.

Results

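The transcripts of 9 heat-shock chaperone genes were followed across the cells of mouse pancreatic tumors. They are Hspa1a, Hspa1b, Dnajb1, Hsph1, Hsp90aa1, Hsp90ab1, Hspa8, Hspd1 and Hspe1, taken by symbol from the 32285 genes of the deposited tables, and all 9 were found. The genes had been picked with earlier results of these data in view, as a possible sign of stress or of tissue dissociation, so their values are given as descriptions and no test was run on them. The tumors were orthotopic K210 tumors, grown from a mouse pancreatic cancer line, in male C57BL/6J mice aged 5 to 6 weeks. One group was given PBS. The other was given cmExoaCD11b, exosomes of mouse fibroblasts that carry IL-12 mRNA, the STING agonist cGAMP at 5 µg per mouse, and an antibody to CD11b on their surface. Tumor-infiltrating cells were collected 48 h after treatment, those of 3 mice were pooled, and each group was sequenced as 1 droplet library (10x Genomics, 3′ chemistry).

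Chaperones hold other proteins in shape, refold damaged ones and pass those beyond repair to degradation. The Hsp70 proteins bind exposed stretches of client proteins in a cycle driven by ATP, which Hsp40 proteins such as Dnajb1 start and Hsp110 proteins such as Hsph1 reset, and Hsp90 takes over clients such as kinases and steroid receptors. When unfolded proteins draw chaperones away from the transcription factor HSF1, it trimerizes, binds repeated GAA units in promoters and raises the inducible chaperones within minutes. In tissue work the same genes, together with immediate-early genes such as Fos and Jun, are known to respond to enzymatic and warm dissociation as well as to fever, proteotoxic drugs and activation of lymphocytes.

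The deposited tables count each transcript once per droplet by its unique molecular identifier (UMI), with 67143628 UMIs in the PBS library and 81288480 in the cmExoaCD11b library. After cell calling and filtering, 6835 PBS cells and 7073 cmExoaCD11b cells remained, with medians of 3470 and 4103 UMIs per cell, and 16 barcodes occurred in both libraries. Cells were gated into classes by UMIs of marker genes, and 7 classes had at least 50 cells in each library. They comprised 3495 PBS and 3013 cmExoaCD11b neutrophil-like cells, 561 and 567 neutrophil precursor-like cells, 85 and 157 monocyte-like cells, 200 and 211 B-like cells, 107 and 161 CD4 T-like cells, 100 and 242 CD8 T-like cells, and 78 and 168 T cells without a lineage call, which held UMIs of neither or of both lineages. The gate left 28.9% of PBS cells and 33.5% of cmExoaCD11b cells unassigned, and 148 and 25 macrophage-like cells were too few in the second library. Levels are UMIs of a gene per 1000000 UMIs of the class (CPM), with exact Poisson 95% intervals in parentheses. With 1 library per group no value has a replicate, so no p-value is given, and every interval covers counting error only. A fall in CPM can come from fewer expressing cells, from fewer UMIs of the gene per cell or from more UMIs of other genes. Shares of cells are therefore given beside the levels, although they too depend on the UMIs of other genes.

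Hspa1a and Hspa1b are neighboring copies of the inducible cytosolic Hsp70, the classic product of a heat shock. Their promoters are shown because the copies are nearly alike there as well. In the RefSeq promoter set for GRCm38.p6, the 250 bases before the start lie at chr17:34972157-34972406 for Hspa1a and at chr17:34959239-34959488 for Hspa1b, both on the minus strand, and differ at 3 of 250 positions. Matches to GAANNTTC or TTCNNGAA, each of which reads the same on both strands and forms the core of a heat-shock element, are in capitals.
Hspa1a: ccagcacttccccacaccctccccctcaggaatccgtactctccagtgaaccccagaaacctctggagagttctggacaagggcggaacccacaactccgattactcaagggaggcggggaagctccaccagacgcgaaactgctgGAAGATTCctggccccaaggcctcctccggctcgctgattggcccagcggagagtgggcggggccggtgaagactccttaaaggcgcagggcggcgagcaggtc
Hspa1b: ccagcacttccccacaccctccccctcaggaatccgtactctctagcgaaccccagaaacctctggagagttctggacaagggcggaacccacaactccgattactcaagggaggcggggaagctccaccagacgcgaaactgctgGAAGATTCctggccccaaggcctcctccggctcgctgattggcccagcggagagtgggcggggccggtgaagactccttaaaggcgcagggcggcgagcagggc
Each holds 1 match, which ends 96 bases before the start. Of all 32851 promoter windows of this length, 12.8% held either motif, so a match describes the letters and is no proof of binding.

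By the mean of the libraries, both genes were highest in CD4 T-like cells, although T cells without a lineage call had more Hspa1b in cmExoaCD11b. The CD4 T-like level of Hspa1a was 879 CPM (804 to 960) for the PBS library and 911 CPM (847 to 979) for the other. Hspa1b, in the same cells, stood at 1134 CPM (1048 to 1225) and 1428 CPM (1348 to 1512). Monocyte-like cells came close for Hspa1a, at 686 and 784 CPM, and held 699 and 704 CPM of Hspa1b. The spans of CD4 T-like cells, T cells without a lineage call and monocyte-like cells overlapped from neighbor to neighbor for both genes. For Hspa1a a gap separated these from the other classes, whereas for Hspa1b the span of T cells without a lineage call also reached that of CD8 T-like cells. Neutrophil-like cells had 355 CPM (347 to 364) of Hspa1a in PBS and 158 CPM (153 to 163) in cmExoaCD11b, and 215 and 131 CPM of Hspa1b, the lowest Hspa1b level of the 7 classes. By the mean of the libraries Hspa1a was lowest in neutrophil precursor-like cells, at 241 and 165 CPM, which overlapped the neutrophil-like span. This order depended on depth. Among cells of 2000 to 5000 UMIs, precursor-like cells held 2126 and 1261 CPM of Hspa1a and CD4 T-like cells 1795 and 962 CPM. With 5000 or more UMIs, the levels were 75.0 and 104 CPM in precursor-like cells and 513 and 882 CPM in CD4 T-like cells. The coding sequences of Hspa1a and Hspa1b are nearly identical, and how reads were divided between the genes was not tested. Hspa1a took 62.3% (61.4 to 63.2) of the pair's UMIs in PBS neutrophil-like cells but 37.0% (33.3 to 40.9) in PBS CD8 T-like cells. Its share in cmExoaCD11b was lower in 6 of the 7 classes and higher in monocyte-like cells. The intervals of the libraries overlapped in B-like, CD4 T-like, CD8 T-like and monocyte-like cells. In droplets of at most 100 UMIs, which carry free RNA, the share was 54.7% (52.9 to 56.5) in PBS and 45.1% (43.5 to 46.8) in cmExoaCD11b.

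Dnajb1, the Hsp40 that hands clients to Hsp70, and Hsph1, the Hsp110 that releases its nucleotide, differed in how widely they varied. Dnajb1 ranged 3.4-fold between the class means, from 69.0 and 65.9 CPM in monocyte-like cells to 181 and 280 CPM in CD4 T-like cells, and neighboring classes overlapped throughout. Hsph1 ranged 45.6-fold, the widest range of the 9 genes, from 7.36 CPM (6.18 to 8.69) in PBS neutrophil-like cells to 229 CPM (191 to 271) in PBS CD4 T-like cells and 434 CPM (391 to 482) in those of cmExoaCD11b. The order for Hsph1 ran from the T-lineage and B-like classes through monocyte-like cells to both neutrophil classes, and the last 3 classes did not overlap their neighbors. For Hsph1, the 250 bases before the start at chr5:149636337-149636586 on the minus strand hold 1 match.
Hsph1: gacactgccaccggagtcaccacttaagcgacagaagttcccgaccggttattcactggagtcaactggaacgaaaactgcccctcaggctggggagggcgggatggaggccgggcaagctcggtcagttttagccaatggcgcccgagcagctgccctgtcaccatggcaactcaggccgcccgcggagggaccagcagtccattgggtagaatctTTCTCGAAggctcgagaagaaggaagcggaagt
Both Dnajb1 windows of the set hold none. Droplets of at most 100 UMIs, which carry free RNA, had 44.6 CPM of Hsph1 in PBS and 91.4 CPM in cmExoaCD11b. The level of the neutrophil-like class as a whole lay below that of the droplets, and it cannot be told apart from background.

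**Figure D1:**
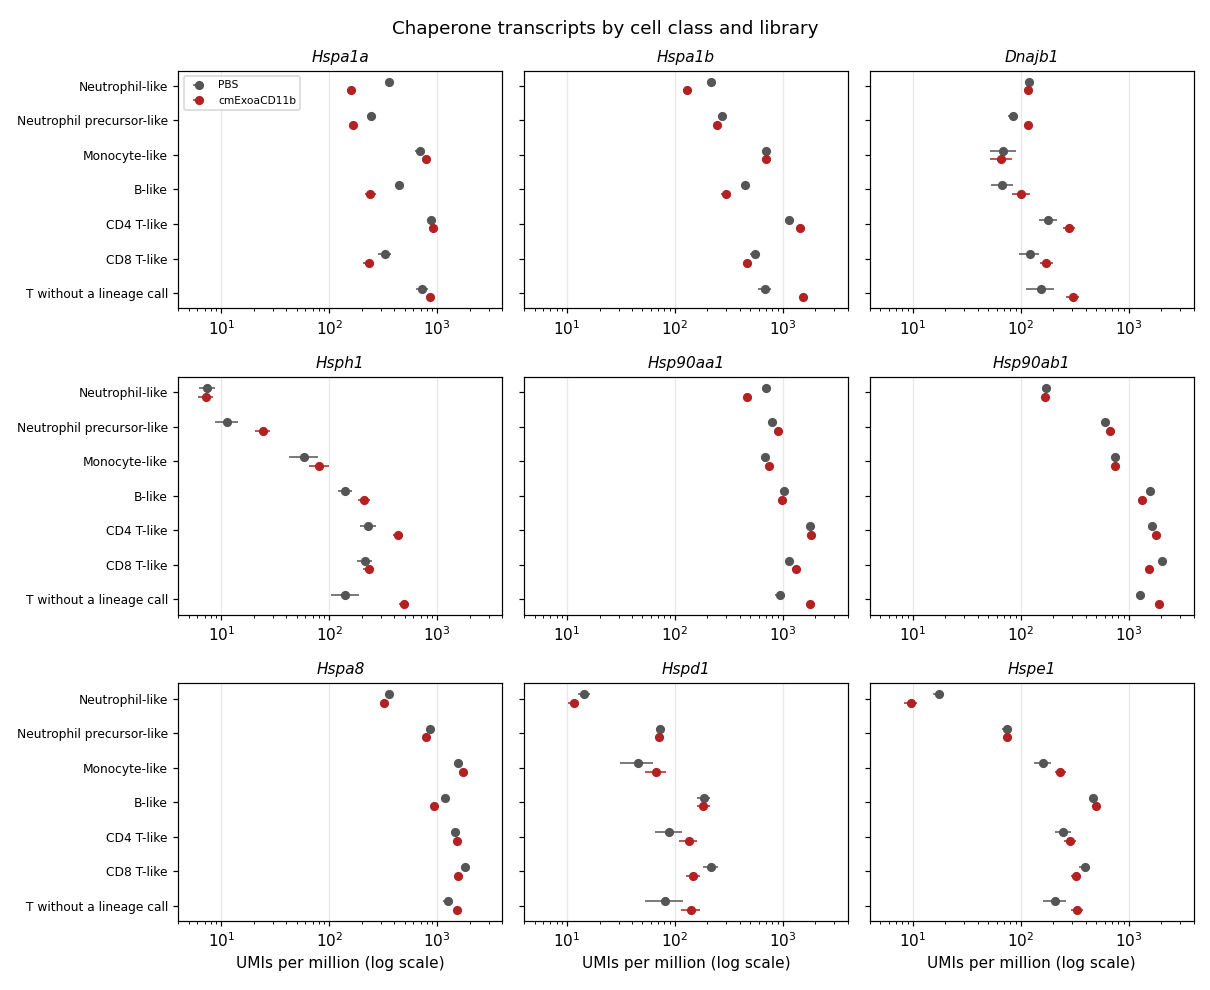
Levels of the 9 genes in CPM (log axis) for each cell class (rows) and library (grey, PBS; red, cmExoaCD11b), with bars for the exact Poisson 95% interval. Neutrophil-like cells sit at the left for 7 of the 9 genes, most clearly for Hsph1, Hspd1 and Hspe1, whereas for Dnajb1 neighboring classes overlap throughout.

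Hsp90aa1 encodes the inducible cytosolic Hsp90, Hsp90ab1 its steadily made partner, and Hspa8 the constitutive Hsc70, which folds new proteins and uncoats clathrin vesicles. Hsp90aa1 shared its highest class with Hspa1a and Hspa1b, with 1769 CPM (1661 to 1881) in PBS CD4 T-like cells. Those of cmExoaCD11b held 1825 CPM (1734 to 1920), against 697 and 463 CPM in neutrophil-like cells. The order of the other classes differed. Monocyte-like cells had a class mean of 715 CPM of Hsp90aa1 and overlapped neutrophil-like cells, which they did not for Hspa1a or Hspa1b. Hsp90ab1 and Hspa8 separated lymphocytes from neutrophil-like cells more sharply than Hsp90aa1. Hsp90ab1 reached 2045 CPM (1942 to 2152) in PBS CD8 T-like cells and 171 CPM (165 to 177) in PBS neutrophil-like cells, a difference of 10.6-fold between the class means. Its 4 lymphocyte classes overlapped one another and none of the myeloid classes. Hspa8 was at 1819 CPM in PBS CD8 T-like cells, 1559 CPM in PBS monocyte-like cells and 355 CPM in PBS neutrophil-like cells. The span of monocyte-like cells for Hspa8 overlapped those of the T-lineage classes, unlike that for Hsp90ab1. The B-like span for Hspa8 reached that of neutrophil precursor-like cells, unlike that for Hsp90aa1.

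Hspd1 and Hspe1 encode Hsp60 and Hsp10, the barrel and the lid of the mitochondrial chaperonin that folds imported proteins. The genes lie head to head on chromosome 1, and the stretch between their starts is shown because their promoter windows share it. It covers 215 bases at chr1:55087933-55088147 in GRCm38.p6, in the direction of Hspe1, and 3 overlapping matches stand in a row.
Hspe1 and Hspd1: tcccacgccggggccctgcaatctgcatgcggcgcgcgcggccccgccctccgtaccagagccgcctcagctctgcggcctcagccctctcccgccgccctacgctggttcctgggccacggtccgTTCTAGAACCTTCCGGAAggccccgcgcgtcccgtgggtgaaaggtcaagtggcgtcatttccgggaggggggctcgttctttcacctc
The row also matches the longer forms TTCNNGAANNTTC and GAANNTTCNNGAA, found in either form in 0.466% of all windows. It ends 71 bases before the Hspe1 start and 126 bases before one Hspd1 start. The window of the other Hspd1 start, at chr1:55088244-55088493, holds no match. By the mean of the libraries both genes were highest in B-like cells, in contrast to the other 7 genes. The B-like level of Hspd1 was 186 CPM (161 to 212) for the PBS library and 183 CPM (160 to 210) for the other, and that of Hspe1 was 472 CPM (433 to 514) and 498 CPM (458 to 540). CD8 T-like cells followed, at 215 and 148 CPM of Hspd1 and 392 and 325 CPM of Hspe1, and overlapped them. Neutrophil-like cells held 14.4 and 11.5 CPM of Hspd1 and 17.4 and 9.62 CPM of Hspe1. Droplets held 84.3 and 112 CPM of Hspd1 and 152 and 160 CPM of Hspe1, so both neutrophil-like levels lay under the level of free RNA.

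Hspa1a and Hspa1b were spread unevenly over the cells of every class, which sets how far the levels can be read. After each cell with at least 1000 UMIs had been thinned to 1000 UMIs, 15.7% of PBS and 10.1% of cmExoaCD11b neutrophil-like cells held an Hspa1a UMI, against 29.2% and 23.6% before thinning. Yet 67 of the 3495 PBS neutrophil-like cells carried 50% of the class's Hspa1a UMIs, and so did 46 of 3013 in cmExoaCD11b. In raw UMIs other members could be as concentrated, since 50% of the UMIs lay in 1.78% of PBS neutrophil precursor-like cells for Hspa1a and for Hspe1, and in 3.5% and 3.0% of PBS B-like cells for Hspa1a and Hspd1. For the pair summed, 50% of the UMIs lay in 8 of 107 PBS CD4 T-like cells, in 6 of 85 PBS monocyte-like cells and in 3 of 78 PBS T cells without a lineage call, where 1 cell held 21.2%. The variance of thinned Hspa1a counts was 19.3 times the mean in PBS neutrophil-like cells and 34.5 times in PBS neutrophil precursor-like cells, where chance sampling of equal cells would give about 1. Across classes and libraries this ratio was between 2.36 and 34.5 for Hspa1a, but between 0.937 and 2.66 for Dnajb1 and 1.21 and 3.23 for Hsph1. It was between 1.24 and 2.71 for Hsp90ab1, 1.14 and 2.0 for Hspa8, 0.949 and 1.58 for Hspd1 and 0.858 and 1.94 for Hspe1. For Hspa1b it was between 3.53 and 16.3, and for Hsp90aa1 between 2.78 and 8.58. The UMIs of Hspa1a, Hspa1b and Hsp90aa1 are thus not independent draws. The intervals of their levels and ratios are too narrow for a statement about cells, and those of the other genes may be as well. A ratio near 1 does not make the UMIs of a sparse gene independent. In raw UMIs 50% of the neutrophil-like Hsph1 total lay in 14 of 3495 PBS cells and in 8 of 3013 cmExoaCD11b cells. Of the 161 Hsph1 UMIs in the latter, 1 cell held 50. The share of cells with 3 or more thinned UMIs of the pair was 23.4% (15.7 to 32.5) in PBS CD4 T-like cells and 23.6% (17.3 to 30.9) in those of cmExoaCD11b. It was 7.16% (6.31 to 8.08) and 4.0% (3.32 to 4.78) in neutrophil-like cells, the one class in which the intervals of the libraries did not overlap. This class also had by far the most cells, 3380 and 2924. B-like cells, with 192 and 205 cells, had 11.5% (7.32 to 16.8) and 7.32% (4.15 to 11.8).

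**Figure D2:**
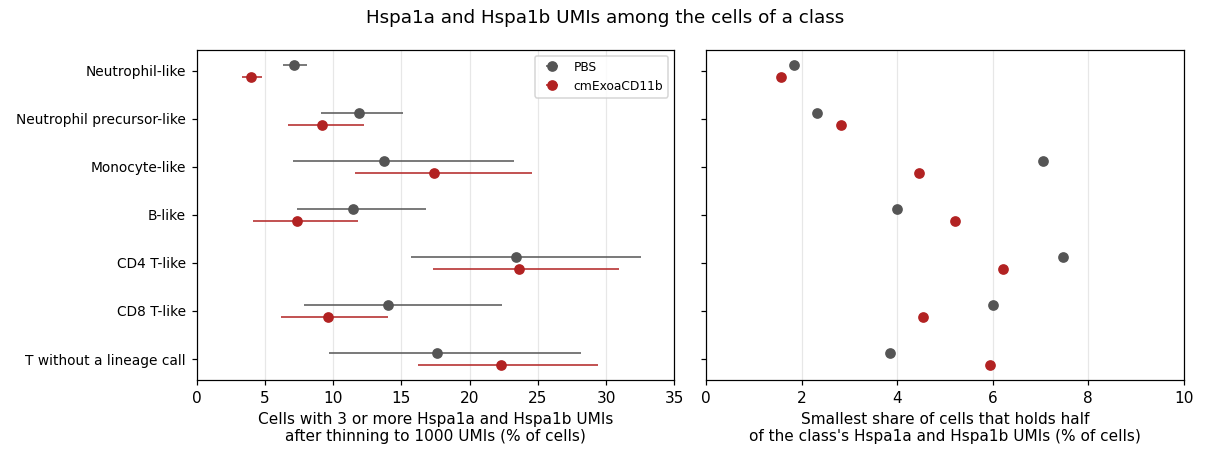
Left, share of cells with 3 or more Hspa1a and Hspa1b UMIs after thinning to 1000 UMIs, per class (rows) and library (grey, PBS; red, cmExoaCD11b), with exact Clopper-Pearson 95% intervals. Right, smallest share of a class's cells that holds 50% of its Hspa1a and Hspa1b UMIs, which stays under 8% in each class and library.

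The levels of Hsph1 and Dnajb1 were higher in cells rich in the pair in each of the 7 classes and both libraries. Shares of cells did not always follow. In PBS monocyte-like cells 0 of 25 with a thinned Hspa1a UMI had a Dnajb1 UMI, against 3.64% (0.443 to 12.5) of 55 without. In cmExoaCD11b these shares were 9.30% and 5.94%. For Dnajb1 the levels in PBS neutrophil-like cells were 304 against 112 CPM, while the share of cells with a thinned Dnajb1 UMI was 13.2% (10.4 to 16.4) with and 11.5% (10.3 to 12.7) without an Hspa1a UMI. The genes beyond the 9 that are named for these cells were chosen after values were seen. In PBS neutrophil-like cells, Hsph1 was at 95.3 CPM in the 242 cells with 3 or more thinned UMIs of the pair and at 3.30 CPM in the other 3138. In those of cmExoaCD11b it was at 160 CPM in 117 cells and at 3.16 CPM in 2807. Bag3, the co-chaperone that links Hsp70 to autophagy, was at 78.2 against 3.14 CPM in PBS neutrophil-like cells, and Hsp90aa1 at 3077 against 583 CPM. Dnaja1, another Hsp40, was at 706 against 192 CPM. Hspa8 was at 1242 against 315 CPM, whereas Actb, the cytoskeletal actin shown for comparison, was at 4366 against 8373 CPM. In PBS CD4 T-like cells, Hsph1 was at 643 CPM in 25 cells rich in the pair and at 123 CPM in 82 others, Hsp90aa1 at 4961 against 959 CPM, Hspa8 at 1781 against 1391 CPM, and Actb at 6872 against 6857 CPM. Per cell, 64.0% of the 25 PBS CD4 T-like cells with a thinned Hspa1a UMI also had an Hspa1b UMI, against 17.1% of the 82 without, and 92.0% against 32.9% had an Hsp90aa1 UMI.

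The summed level of the listed immediate-early genes was higher in cells rich in the pair in each of the 7 classes and both libraries, at 62525 against 36174 CPM in PBS neutrophil-like cells and 14698 against 10946 CPM in PBS T cells without a lineage call. In the latter, however, 37.5% of cells with a thinned Hspa1a UMI and 41.4% of those without had a Fos UMI. The intervals were wide, 15.2 to 64.6 for 16 cells and 28.6 to 55.1 for 58 cells. The shares in cmExoaCD11b T cells without a lineage call were 50% (29.9 to 70.1) and 41.4% (33.2 to 50.1). In PBS CD4 T-like cells, Fos was at 2615 CPM in cells rich in the pair and at 450 CPM in the others, and Jun at 1729 against 575 CPM. In PBS neutrophil-like cells Fos was at 4853 against 2704 CPM and Jun at 8177 against 3587 CPM, while Atf3, a stress-induced repressor, was at 2997 against 1042 CPM. The neutrophil-like cells rich in the pair had a median of 3008 UMIs against 3397 in the others, and 0.311% against 0.254% mitochondrial UMIs. They held 17150 against 66485 CPM of S100a8 and 8397 against 43078 CPM of the 8 precursor markers summed. Of the macrophage markers they held 468 against 281 CPM. In cmExoaCD11b neutrophil-like cells S100a8 was at 43104 against 77269 CPM. In PBS neutrophil precursor-like cells the 56 rich cells had a median of 2298.5 UMIs and the other 416 one of 4772.5, and in cmExoaCD11b the medians were 2116 and 13106. The part of depth, of maturity and of cell quality in the level of these genes was not tested.

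**Figure D3:**
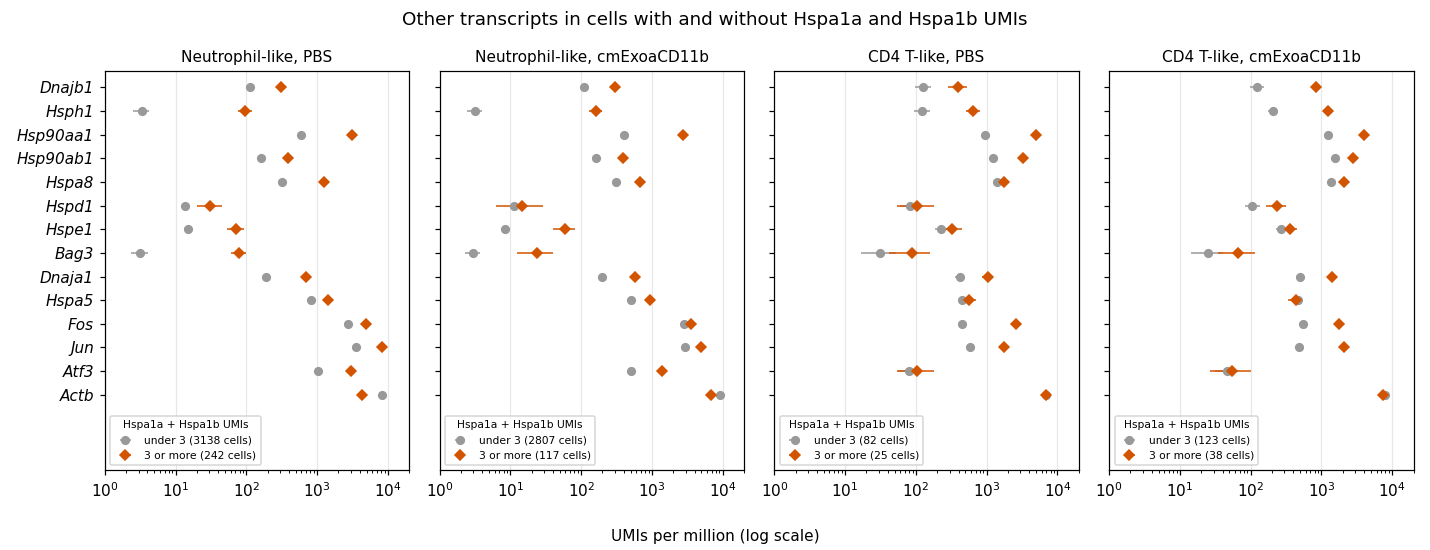
Levels of other transcripts in CPM (log axis) in cells with 3 or more (orange) and under 3 (grey) thinned UMIs of Hspa1a and Hspa1b, in neutrophil-like and CD4 T-like cells of each library, with exact Poisson 95% intervals. Hsph1 and Hsp90aa1 lie further right in the rich cells of all 4 panels, whereas Actb is lower in the rich neutrophil-like cells and differs little in CD4 T-like cells.

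The libraries were then compared within each class as the ratio of cmExoaCD11b to PBS, with an exact conditional 95% interval. Of the 63 pairs of gene and class, all with at least 50 UMIs, 11 were at least 1.5-fold higher in cmExoaCD11b and 5 at least 1.5-fold lower. Among all pairs of gene and class with 50 UMIs, 11.1% were that much higher and 8.08% that much lower. The count of higher pairs is 7 genes in the T cells without a lineage call, 3 in CD4 T-like cells and 1 in neutrophil precursor-like cells. The 5 lower pairs are 4 genes in neutrophil-like cells and 1 in B-like cells.

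**Figure D4:**
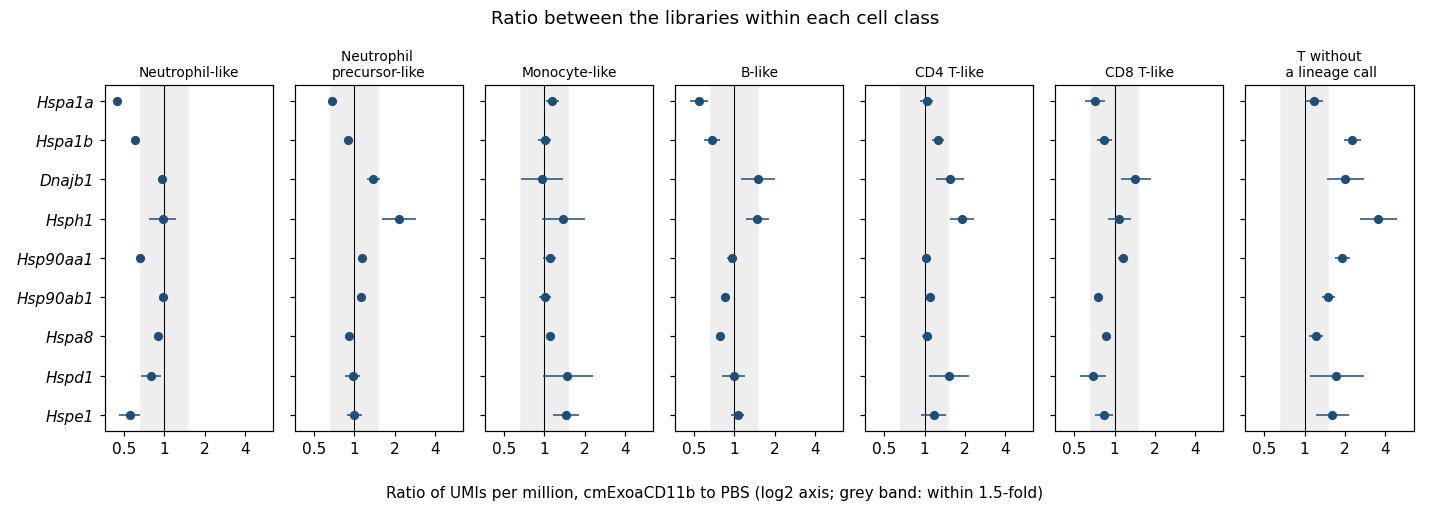
Ratio of CPM, cmExoaCD11b to PBS (log2 axis), for the 9 genes (rows) in each of the 7 classes (panels), with the exact conditional 95% interval and a grey band for changes within 1.5-fold. Neutrophil-like cells have points left of the band, T cells without a lineage call have points right of it, and monocyte-like and CD8 T-like cells have all points within it.

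In neutrophil-like cells Hspa1a was at 355 CPM in PBS and 158 CPM in cmExoaCD11b, a ratio of 0.445 (0.427 to 0.463). Hspa1b had a ratio of 0.607 (0.579 to 0.637), Hsp90aa1 one of 0.664 (0.647 to 0.681) and Hspe1 one of 0.552 (0.463 to 0.657). These 4 of 9 genes were at least 1.5-fold lower and none was as much higher, where 14.8% of all 10250 genes were lower and 9.95% higher. Dnajb1, at 0.964 (0.911 to 1.02), Hsph1, at 0.975 (0.772 to 1.23), and Hsp90ab1, at 0.985 (0.940 to 1.03), had intervals that included 1. Cells with a thinned Hsp90aa1 UMI made up 45.2% in PBS and 33.4% in cmExoaCD11b, and those with an Hspa1b UMI 9.79% and 7.49%. The Hspe1 value rests on a level under that of free RNA. Every other gene but Dnajb1 also lay under the droplets in both libraries. The droplets held 495 and 395 CPM of Hspa1a, 410 and 481 CPM of Hspa1b, and 730 and 929 CPM of Hsp90aa1.

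Depth moved with this difference. Neutrophil-like cells with 5000 or more UMIs numbered 876 in PBS and 1270 in cmExoaCD11b, and they held the lowest levels of the pair in both. In cells of 500 to 2000 UMIs Hspa1a was at 924 CPM in PBS and 425 CPM in cmExoaCD11b, a ratio of 0.460 (0.400 to 0.528). In those of 2000 to 5000 UMIs it was at 640 and 356 CPM, a ratio of 0.556 (0.524 to 0.591), and in the deepest at 148 and 103 CPM, a ratio of 0.695 (0.650 to 0.743). Hsp90aa1 had ratios of 0.758, 0.789 and 0.820 in the same order. Hspa1b had 0.628, 0.746 and 0.920, whereas Dnajb1 had 1.20, 1.20 and 1.04. Within each depth range Hspa1a and Hsp90aa1 were lower in cmExoaCD11b, as over the whole class. The decrease was smaller than over the class in each range. For Hspa1a in cells of 500 to 2000 UMIs, however, the interval of the ratio included the ratio of the whole class. Cells above the ranked-UMI cut-off alone, 747 in PBS and 1002 in cmExoaCD11b, gave 0.860 for Hspa1a, 0.999 for Hspa1b and 0.929 for Hsp90aa1. No gene but Hsph1, at 2.25, was past 1.5-fold there. Over the whole class, 1 cell held 50 of the 161 Hsph1 UMIs of cmExoaCD11b. Without the richest cell of each library the Hsph1 ratio of the class was 0.767. The part of depth in the lower level was not tested.

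**Figure D5:**
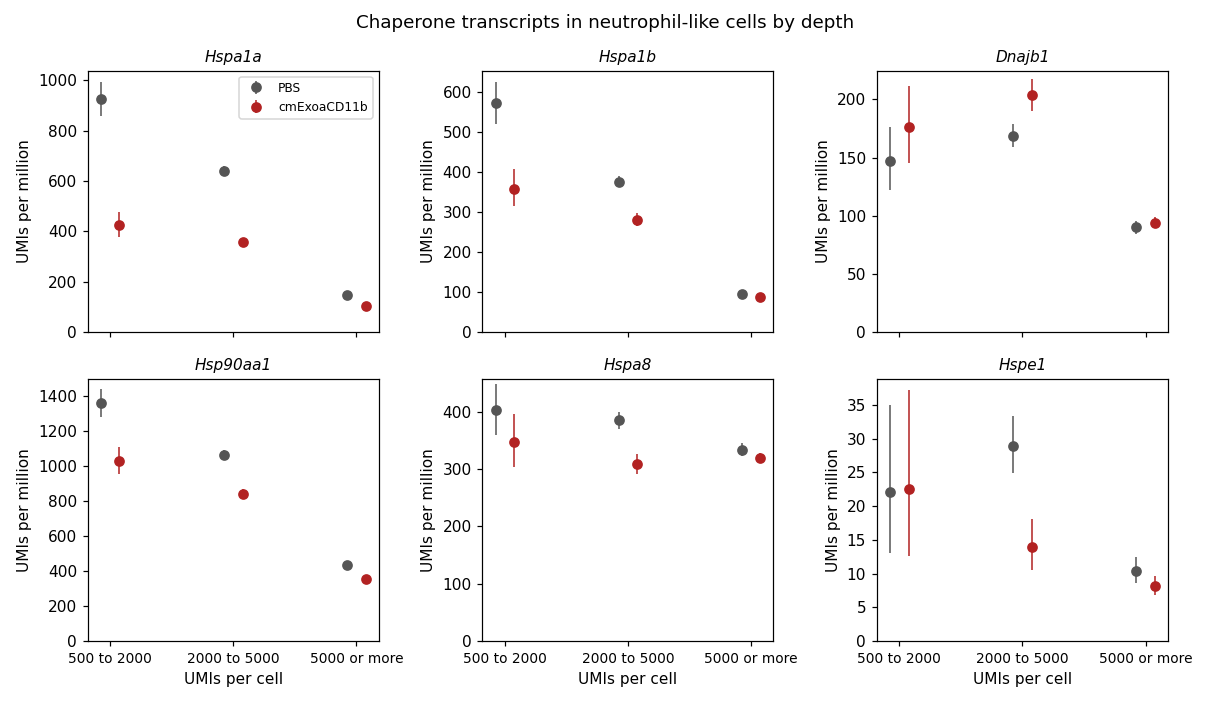
Levels of 6 genes in neutrophil-like cells in CPM (linear axes from 0) by UMIs per cell, for PBS (grey) and cmExoaCD11b (red), with exact Poisson 95% intervals. Hspa1a falls from 924 to 148 CPM in PBS with depth and lies lower in cmExoaCD11b in each depth range, whereas Dnajb1 lies above its PBS level in each.

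B-like cells had a lower level of Hspa1a, 442 CPM in PBS and 240 CPM in cmExoaCD11b, with a ratio of 0.542 (0.467 to 0.629), where 5.04% of all genes were as much lower and 7.94% as much higher. The ratio of Hspa1b was 0.676 (0.588 to 0.775), and those of Dnajb1 and Hsph1 were 1.49 (1.11 to 2.01) and 1.48 (1.21 to 1.82). One PBS B-like cell carried 100 of the class's 507 Hspa1a UMIs, and without the richest cell of each library the Hspa1a ratio was 0.622. In the 25 PBS and 21 cmExoaCD11b cells of 500 to 2000 UMIs the direction was opposite, with 3 and 16 Hspa1a UMIs and a ratio of 6.09 (1.74 to 32.6). The shares of B-like cells with a thinned Hspa1a UMI were 16.1% and 14.1%, within the counting interval of each other.

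In CD4 T-like cells Dnajb1 was at 181 and 280 CPM, a ratio of 1.55 (1.22 to 1.97), Hsph1 at 229 and 434 CPM, a ratio of 1.90 (1.55 to 2.34), and Hspd1 at 87.9 and 134 CPM, a ratio of 1.52 (1.08 to 2.17). In this class 10.9% of all genes were at least 1.5-fold higher and 4.84% lower. Without the richest cell of each library Dnajb1 had a ratio of 1.43, under 1.5-fold. In cells of 2000 to 5000 UMIs the ratios of Dnajb1 and Hsph1 were 1.02 and 1.09, and in deeper cells 1.92 and 2.73. Hspa1a, Hspa1b, Hsp90aa1, Hsp90ab1, Hspa8 and Hspe1 lay between 1.03 and 1.26. The summed pair was at 4143 CPM in the 44 PBS cells of 2000 to 5000 UMIs and at 1165 CPM in the 58 deeper ones, and at 2371 and 2325 CPM in cmExoaCD11b, so the ratio turned with depth. With the gate read from thinned cells, which left 33 and 53 CD4 T-like cells, Dnajb1 had a ratio of 0.747.

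CD8 T-like and monocyte-like cells had no gene past 1.5-fold in either direction, where 16.3% and 14.8% of all genes were higher and 10.9% and 7.18% lower. In CD8 T-like cells the ratios ran from 0.689 (0.553 to 0.861) for Hspd1 and 0.715 (0.599 to 0.854) for Hspa1a to 1.43 (1.11 to 1.86) for Dnajb1. In monocyte-like cells they ran from 0.956 for Dnajb1 to 1.48 (0.977 to 2.29) for Hspd1. In CD8 T-like cells of 2000 to 5000 UMIs Hspa1a had a ratio of 1.33 (0.904 to 2.03), against 0.395 (0.304 to 0.509) in deeper ones. Hsp90aa1 went from 1.57 to 0.899 and Dnajb1, the other way, from 0.775 to 1.70, so these ratios turned with depth. The deeper cells were 63 of 100 in PBS and 86 of 242 in cmExoaCD11b. As a mean over thinned cells, Hsp90aa1 in CD8 T-like cells had a ratio of 1.59. Dnajb1 in monocyte-like cells had one of 1.85, from 3 PBS and 10 cmExoaCD11b thinned UMIs. Under the gate described below, which counted markers only above free RNA, monocyte-like cells had Hspd1 and Hspe1 at least 1.5-fold higher. Summed, these genes were at 203 and 370 CPM there, while CD8 T-like cells again had no gene past 1.5-fold. Neutrophil precursor-like cells had Hsph1 at 11.2 and 24.1 CPM, a ratio of 2.15 (1.62 to 2.88). In this class 9% of all genes were 1.5-fold higher and 3.97% lower. Both Hsph1 levels lay below those of the droplets, whose own Hsph1 ratio was 2.05 (1.69 to 2.50). Under other gates, filters and scalings the Hsph1 ratio of the class was between 1.15 and 2.23. With markers counted only above free RNA, this class had no gene past 1.5-fold. By the first gate Hspa1a had a ratio of 0.686 (0.635 to 0.741) in these cells. It was 0.973 in cells of 500 to 2000 UMIs, 0.593 in those of 2000 to 5000 and 1.38 (1.22 to 1.56) in deeper ones. Its direction thus turned with depth. The summed pair in these cells was at 3911 CPM in PBS and 3848 CPM in cmExoaCD11b among cells of 2000 to 5000 UMIs, and at 229 and 245 CPM in deeper ones.

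T cells without a lineage call had 7 of 9 genes at least 1.5-fold higher in cmExoaCD11b, where 12.4% of all genes were, and none lower, where 5.31% were. The PBS level of Hsph1 was 141 CPM (103 to 188) and that of cmExoaCD11b 496 CPM (445 to 552), a ratio of 3.53 (2.58 to 4.93). Hspa1b was at 679 and 1540 CPM, a ratio of 2.27 (1.96 to 2.64). Dnajb1 had a ratio of 1.99 (1.46 to 2.78) and Hsp90aa1 one of 1.91 (1.69 to 2.18). Hspd1 and Hspe1 had 1.72 (1.10 to 2.76) and 1.60 (1.21 to 2.13), and Hsp90ab1, at 1.5 (1.34 to 1.68), lay at the limit. Hspa1a, at 1.18 (1.01 to 1.38), and Hspa8, at 1.21 (1.08 to 1.36), were not past 1.5-fold. The shares of cells with a thinned UMI lay closer together, at 24.3% and 28.9% for Hspa1b, 10.8% and 19.9% for Hsph1 and 41.9% and 53.6% for Hsp90aa1. Without the richest cell of each library the ratio of Hsph1 was 4.51 and that of Hspa1b 3.04. In cells above the ranked-UMI cut-off alone, 15 in PBS and 12 in cmExoaCD11b, Hspa1b had a ratio of 0.739 and the summed pair one of 0.333. In the 13 PBS and 20 cmExoaCD11b cells of 500 to 2000 UMIs, Hsp90aa1 had a ratio of 0.232 (0.116 to 0.437) and Hspa1b one of 0.323 (0.110 to 0.856), against 2.27 and 1.63 in cells of 2000 to 5000 UMIs and 1.95 and 5.44 in deeper ones. This class is defined by the lack of a single lineage, which depends on depth, and its cells had medians of 3866.5 and 3724.5 UMIs.

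A gate that counted a marker only above its free-RNA level, chosen after seeing the data, brought 249 PBS and 68 cmExoaCD11b macrophage-like cells into view. Hspa1a was at 606 and 617 CPM there, a ratio of 1.02 (0.910 to 1.14), and Hspa1b at 459 and 795 CPM, a ratio of 1.73 (1.56 to 1.92), the one gene of 9 past 1.5-fold, where 12.1% of all genes were higher and 12.9% lower. Hsp90aa1 was at 667 and 761 CPM and Hspa8 at 1508 and 1355 CPM. The macrophage-like cells had medians of 12412 UMIs in PBS and 6009.5 in cmExoaCD11b, and the part of depth in these values was not tested. Under this gate Hspa1b in neutrophil-like cells had a ratio of 0.712 and Hspd1 in CD4 T-like cells one of 0.707. Unassigned cells of the first gate had ratios of 0.812 for Hspa1a, 1.16 for Hspa1b and 1.40 for Hsph1.

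Other chaperone lists give the surroundings of the 9 genes, to be read against the 14.8% of all genes that were lower and the 9.95% that were higher in neutrophil-like cells. In neutrophil-like cells 1 of 27 other HSF1-linked chaperones and co-chaperones with 50 UMIs was at least 1.5-fold higher and 7 were lower, with a median log2 ratio of -0.22 beside -0.01 over all genes. Fkbp5, an Hsp90 co-chaperone and a known target of the glucocorticoid receptor, was at 33.5 and 73.6 CPM, a ratio of 2.2, and St13, which bridges Hsp70 and Hsp90, at 59.1 and 26.9 CPM, a ratio of 0.454. Of 8 mitochondrial chaperones 4 were lower, among them Hspa9, the mitochondrial Hsp70, at 0.399, Clpp at 0.480 and Dnaja3 at 0.438. None of the 8 subunits of TRiC, the cytosolic chaperonin that folds actin and tubulin, was past 1.5-fold, and the median log2 ratio was -0.20. Of 16 endoplasmic reticulum chaperones and stress genes 2 were lower, a share near that of all genes, namely Ddit3 at 0.580 and Hspa5, the master chaperone BiP, at 0.611. Of 16 immediate-early genes 6 were lower, with Ier3 at 4481 and 1928 CPM, a ratio of 0.430, and Atf3 at 1127 and 522 CPM, a ratio of 0.464, and the list summed to 37360 and 27917 CPM. All 8 interferon-stimulated genes were higher, with Ifit1 at 54.7 and 230 CPM, a ratio of 4.21.

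The same lists gave other counts elsewhere, and the genes named here were chosen after values were seen. In CD8 T-like cells 8 of 15 immediate-early genes were at least 1.5-fold higher, Junb at 802 and 1744 CPM and Zfp36 at 257 and 543 CPM among them, and none was lower, while 5 of 8 TRiC subunits and 4 of 5 mitochondrial chaperones were lower, where 16.3% of all genes were higher and 10.9% lower. In B-like cells 6 of 16 endoplasmic reticulum genes were higher, with Hsp90b1, the Hsp90 of that compartment, at 295 and 745 CPM, and 1 was lower, where 7.94% of all genes were higher and 5.04% lower. With markers counted only above free RNA, 2 of the 16 were higher and none lower, and the median log2 ratio went from 0.33 to -0.02. In T cells without a lineage call 4 of 18 other HSF1-linked genes were higher and none lower, with Dnaja1 at 463 and 827 CPM, a ratio of 1.79, where 12.4% of all genes were higher. CD4 T-like cells, where 10.9% of all genes were higher, had 4 of 20 higher, namely Hspa4l, Hspa14, Chordc1 and Ahsa1, the co-factor that speeds the Hsp90 cycle, at 52.7 and 102 CPM. Differences between classes in these counts were not tested.

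The pattern over classes was also compared with that of other genes, as a description over 14 profiles of 7 classes and 2 libraries, which share depth and library within each class. Of 7572 genes with at least 500 UMIs, Med15 and Itm2c had the highest Pearson correlation with the inducible group, 0.92 each. Akr1b3, at 0.99, and Emg1, at 0.98, were closest to Hsp90aa1, Hsp90ab1 and Hspa8 summed. Closest to Hspd1 and Hspe1 summed were Eef1g, a translation elongation factor subunit, and Cct3, a TRiC subunit, at 0.99 each.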

How the data were processed

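Raw UMI counts per gene and droplet were deposited by the authors as 1 unfiltered matrix per library, which the file header credits to Cell Ranger 7.1.0; the genome build is not given in the files. Cells were called in Python 3.11.15 (scanpy 1.11.5, numpy 2.4.6, scipy 1.17.1) as barcodes above 10% of the 99th percentile of the top 3000, plus barcodes of at least 500 UMIs that differed from droplets of at most 100 UMIs in 10000 simulations (false discovery rate 0.01). Of these, barcodes with under 200 genes or over 20% mitochondrial UMIs were dropped. The automatic threshold of Scrublet (30 components) marked 0 doublets, so the 421 PBS and 453 cmExoaCD11b cells of highest score, 0.8% per 1000 cells, were removed. A class needed UMIs of at least 2 of its markers, and its name was rebuilt from them, which can itself make values differ from those of the study. Ratios needed 50 UMIs over both libraries, and 1.5-fold was the size reported. Intervals are exact Poisson, Clopper-Pearson and conditional binomial ones. The code was tested on simulated data.

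The members and lists were chosen with earlier results of these data known. Named were the 9 genes, up to 3 genes of each list with the largest ratio in neutrophil-like and in macrophage-like cells, and up to 5 genes per group most like it in log2(CPM + 10), apart from those said to be chosen later. Promoters came from RefSeq (GRCm38.p6), which matched 6 of the 9 genes; Hsp90aa1, Hsp90ab1 and Hspa8 had no entry. The 16 shared barcodes were kept, and 2 alternatives were chosen after seeing the data. The study's methods describe warm collagenase digestion of tumors into cell suspensions; whether those suspensions gave these libraries is not stated there.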

Additional observations from a re-analysis of the deposited data

Results flagged for a closer look

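Hspa1b, Hsp90aa1 and Hspe1 moved in opposite directions in neutrophil-like cells and in T cells without a lineage call. The ratio of cmExoaCD11b to PBS was 0.607 and 2.27 for Hspa1b, 0.664 and 1.91 for Hsp90aa1, and 0.552 and 1.60 for Hspe1. With 1 library per group the difference between the classes was not tested.

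Hsph1 was also higher in the droplets of at most 100 UMIs of the cmExoaCD11b library, which hold free RNA and enter no class, with a ratio of 2.05 (1.69 to 2.50).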

How the results depend on the processing

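No paired analysis was possible because each group is 1 library of other mice, and for the same reason no library could be left out. The counts of 11 higher and 5 lower pairs of gene and class became 6 higher with markers read from thinned cells, 8 and 10 lower with free RNA subtracted at 5% and 10%, and 3 higher and 1 lower at 2-fold. The summed ratio of Hspa1a, Hspa1b, Dnajb1 and Hsph1 was 0.776 in B-like, 1.26 in CD4 T-like, 0.906 in CD8 T-like, 1.08 in monocyte-like, 0.903 in neutrophil precursor-like and 0.590 in neutrophil-like cells and 1.88 in T cells without a lineage call. In B-like cells it was between 0.742 and 0.789 under other gates, filters and scalings, but 0.866 without the richest cells and 3.61 in cells of 500 to 2000 UMIs. With the ranked-UMI cut-off alone it was 1.98 in CD4 T-like, 0.524 in CD8 T-like, 1.20 in monocyte-like, 1.14 in neutrophil precursor-like and 0.969 in neutrophil-like cells. In T cells without a lineage call this cut-off turned it to 0.796, Hspa1b to 0.739 and the pair summed to 0.333. That cut-off left 15 and 12 of the latter cells. With markers read from thinned cells the summed ratio was 0.511 in CD4 T-like, where Dnajb1 turned to 0.747, 1.02 in CD8 T-like, 0.983 in neutrophil precursor-like, 0.649 in neutrophil-like and 1.26 in T cells without a lineage call. As a mean over thinned cells it was 1.18 in CD4 T-like, 1.09 in CD8 T-like, 0.799 in monocyte-like, 0.807 in neutrophil precursor-like and 1.55 in T cells without a lineage call. Without doublet removal it was 0.618 in neutrophil-like cells and 1.68 in T cells without a lineage call. In neutrophil precursor-like cells it was 1.00 with 3 markers and 0.833 when centred on all genes. In neutrophil-like cells it was 0.551 and 0.508 with free RNA subtracted at 5% and 10%. With markers counted only above free RNA, chosen after seeing the data, it was 1.15 in CD4 T-like, where Hspd1 turned to 0.707, 1.05 in CD8 T-like, 0.784 in monocyte-like, 1.03 in neutrophil precursor-like and 0.617 in neutrophil-like cells. The cause was not tested for any of these. Leaving out shared barcodes moved none of the ratios beyond their counting interval. Hsph1, Hspd1 and Hspe1 in neutrophil-like cells are limited by depth and free RNA. The other genes there also lay under the droplet level in both libraries, except Dnajb1, which did so only in cmExoaCD11b.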
